A study of Drosophila melanogaster with 3 samples.

Results

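The genes described are the 7 KLF and Sp zinc-finger genes cbt, luna, dar1, Klf15, Sp1, btd and Spps, out of 18164 annotated genes of Drosophila melanogaster. They were chosen by family, and because the strongest peak of the series lies beside cbt. For each gene, every peak summit inside the gene or within 5 kb of its ends, or within 500 bp of one of its transcription start sites (TSSs), was taken as a summit of that gene. Since cbt was included for its peak, the rank, place and number of the peaks at cbt are a description, and nothing is read from setting them against other genes.

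KLF and Sp proteins are transcription factors that share a C-terminal array of C2H2 zinc fingers. The array contacts GC-rich sequence, the GC box (GGGCGG) and the CACCC box (GGGTG on the other strand) being the textbook sites, while the N-terminal parts differ and recruit activators or repressors. In the fly embryo and nervous system the family is known for head patterning, epithelial closure, dendrite growth and, through Spps, the DNA elements at which Polycomb proteins are recruited.

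Chromatin immunoprecipitation with sequencing was done with an anti-GFP antibody on a fly line stably expressing CG8944 with GFP at its C terminus. There were 3 biological replicates of 1 group: embryos of mixed sex aged 0 to 24 h, all from that same line, with chromatin sonicated to 200 to 800 bp. No other genotype, treatment or age was compared. Whole embryos of all stages in that span were used, so that a site bound weakly in all cells and one bound in few cells cannot be told apart, and the summits are those of the tagged protein.

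The peak lists on the dm6 build held 30000, 30000 and 27393 entries for replicates 1, 2 and 3 and 23886 for the replicates pooled. The authors' reproducible list, made with the irreproducible discovery rate (IDR) method, held 3511 peaks. These were the 3511 strongest entries of the pooled list, so a rank in the reproducible list is also the pooled rank. The authors' signal value has no stated scale and is read within 1 list. Read depth is unknown, since the lists hold no read counts.

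Across the 7 genes there were 12 reproducible summits. Of these, 5 lay at luna, 4 at cbt, 2 at Spps and 1 at dar1. The lists gave Sp1 and btd relaxed entries only, and Klf15 no entry. Thus 4 of 7 genes had a reproducible summit in the gene or its 5 kb flanks, where 39.5% of all genes did, and 6 of 7 had a pooled entry, where 87.9% of all genes did. Within 500 bp of a TSS of their own, 1 of 7 genes (cbt) had a reproducible summit, against 14.1% of all genes, and the same 1 of 7 had a pooled entry, against 39.9%. The counts of reproducible summits include cbt, which was chosen for its peak. The other genes with a reproducible summit were luna, dar1 and Spps, none of them with one at its own TSS. With cbt in by choice and 7 genes of unequal length, nothing about the family is read from these counts.

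The sequences at the summits are shown first, because cbt's peaks are the ones the family's ranks turn on and the others show what weaker summits look like. Each is the plus strand of the RefSeq Release 6 genome (dm6), 100 bp on either side of the summit, with capitals for the stretch spanned by the summits of the 3 replicates. The Spps window next to mask ends early, before mask's first exon. The btd sequence is a relaxed entry in its coding exon, shown for contrast, and no sequence of luna is shown.
cbt, rank 1, chr2L:480988-481188: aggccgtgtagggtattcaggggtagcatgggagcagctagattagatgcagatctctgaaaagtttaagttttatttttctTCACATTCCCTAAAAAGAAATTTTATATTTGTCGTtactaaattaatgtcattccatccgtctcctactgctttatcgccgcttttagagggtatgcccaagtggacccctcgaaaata
cbt, rank 82, chr2L:479968-480168: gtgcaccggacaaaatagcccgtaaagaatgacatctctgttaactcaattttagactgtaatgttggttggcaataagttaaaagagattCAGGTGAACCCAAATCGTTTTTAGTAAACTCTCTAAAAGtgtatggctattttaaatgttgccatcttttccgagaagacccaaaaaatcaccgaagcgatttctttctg
cbt, rank 316, chr2L:472394-472594: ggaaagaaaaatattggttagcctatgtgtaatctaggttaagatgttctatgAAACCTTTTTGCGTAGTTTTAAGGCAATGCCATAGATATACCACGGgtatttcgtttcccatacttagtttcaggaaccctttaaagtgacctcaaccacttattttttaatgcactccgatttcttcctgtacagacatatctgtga
cbt, rank 2157, chr2L:481793-481993: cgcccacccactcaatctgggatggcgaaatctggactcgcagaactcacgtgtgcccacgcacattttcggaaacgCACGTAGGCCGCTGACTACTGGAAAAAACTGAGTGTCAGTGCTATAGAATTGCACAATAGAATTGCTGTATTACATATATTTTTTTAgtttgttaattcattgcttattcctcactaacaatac
dar1, rank 2150, chr3L:3638716-3638916: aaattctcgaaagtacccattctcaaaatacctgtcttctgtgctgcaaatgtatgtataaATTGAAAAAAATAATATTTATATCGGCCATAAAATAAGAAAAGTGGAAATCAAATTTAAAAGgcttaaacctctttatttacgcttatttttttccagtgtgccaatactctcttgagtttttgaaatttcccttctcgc
Spps, rank 2221, chr3R:24222009-24222209: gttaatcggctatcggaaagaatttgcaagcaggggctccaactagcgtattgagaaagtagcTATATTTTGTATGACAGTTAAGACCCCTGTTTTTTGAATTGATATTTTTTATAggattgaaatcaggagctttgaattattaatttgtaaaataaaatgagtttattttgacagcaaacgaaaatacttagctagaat
Spps, rank 2549, chr3R:24230393-24230561: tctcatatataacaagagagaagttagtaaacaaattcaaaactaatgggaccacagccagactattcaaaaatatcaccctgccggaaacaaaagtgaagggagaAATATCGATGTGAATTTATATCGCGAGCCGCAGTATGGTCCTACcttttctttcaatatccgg
btd, relaxed entry, pooled rank 5727, chrX:9695107-9695307: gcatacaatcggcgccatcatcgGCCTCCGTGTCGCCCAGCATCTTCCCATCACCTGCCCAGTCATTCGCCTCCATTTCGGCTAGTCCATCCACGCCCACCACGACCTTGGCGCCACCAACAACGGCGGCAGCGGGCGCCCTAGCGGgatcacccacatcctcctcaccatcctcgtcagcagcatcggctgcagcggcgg

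The gene cbt (cabut, FBgn0043364, chr2L:476446-479688, minus strand) encodes a KLF protein related to the mammalian TGF-beta-inducible early genes, needed for dorsal closure of the embryo and known in sugar sensing and the circadian clock. It lies wholly inside ush, which is on the other strand and encodes a Friend of GATA cofactor. The strongest reproducible peak (chr2L:480880-481300, 421 bp wide) had its summit at 481088, which is 1400 bp upstream of the cbt TSS and in an intron of ush, whose nearest TSS was 4868 bp away. Its signal was 1058 in replicate 1, 1140 in replicate 2 and 997 in replicate 3. These were 100%, 98.9% and 97.0% of the highest signal in the respective list, and ranks 1, 2 and 2. No replicate stood apart at this site. In the pooled list it led with a signal of 3177, just above the peak at CG14100 with 3165, and ahead of those at Ugalt, a nucleotide-sugar transporter gene, with 2520, and px with 2406. Replicates 2 and 3 put CG14100 first and cbt second, so that the order of cbt and CG14100 was within the spread between replicates. The peaks at Ugalt and px held ranks 3 and 4 in every replicate, in varying order. The peaks at CG14100, Ugalt and px had their summits 96, 42 and 203 bp upstream of a TSS, so of these 4 strongest peaks the one at cbt lay farthest from a start site.

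A weaker peak was the only one of the family at a TSS of its own gene. Its summit at 480068 (chr2L:479921-480221) lay 380 bp upstream of cbt, again within the ush intron and 1020 bp from the strongest summit. Its signal was 260, 301 and 232 in replicates 1, 2 and 3, which gave ranks 82, 70 and 100 and 24.6%, 26.1% and 22.6% of the list's highest signal. All 3 replicates therefore placed it at about the same fraction of the list's highest signal. In replicates 2 and 3 that highest signal was at CG14100 and not at the neighbouring cbt peak.

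The third cbt summit, at 481893 (chr2L:481693-482092), was 2205 bp upstream of the TSS and also in the ush intron. Its ranks were 2223, 1868 and 2989, from signals of 52.8, 58.5 and 38.2. The remaining one, at 472494 (chr2L:472377-472553), lay beyond the 3' end of cbt, 7194 bp from its TSS but 294 bp upstream of CG4297 and 519 bp upstream of MED15, which encodes a Mediator subunit. That peak ranked 291, 302 and 344, with signals of 152, 156 and 134, and was closer to the TSSs of these neighbours than to that of cbt. Peaks at cbt thus covered the range from the first rank to the weaker part of the reproducible list.

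The 4 summits in the 13.2 kb window of cbt gave 0.302 per kb, 11.5-fold the 0.0262 per kb of the chromosome arms. Of the 14562 genes with windows up to 15 kb, 0.652% (95 genes) had as many. These values come from the window for which cbt was chosen and single it out by construction. The count also rests on the flanks, with 0 summits inside cbt itself and 2 within a 2 kb flank. The cbt window overlaps those of ush, MED15 and CG4297, which differ in length and held 12, 5 and 3 reproducible summits. The pooled list held 10 entries at cbt, reproducible ones included, and the lists of replicates 1, 2 and 3 held 9, 8 and 9. The strongest entries outside the reproducible list were at 471843, 288 bp from the CG4297 TSS, with rank 4777 and signal 85.2, and at 478509 in the 5' UTR of cbt, with rank 9094 and signal 58.7. The lowest reproducible signal was 107. Just outside the 5 kb limit, reproducible summits at 485856 (rank 475, signal 357) and 470758 (rank 752, signal 288) lay 6168 and 8930 bp from the cbt TSS. Both were nearer to other genes, 4979 bp from a TSS of lncRNA:CR46258 and 797 bp from one of CG4297.

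**Figure D1:**
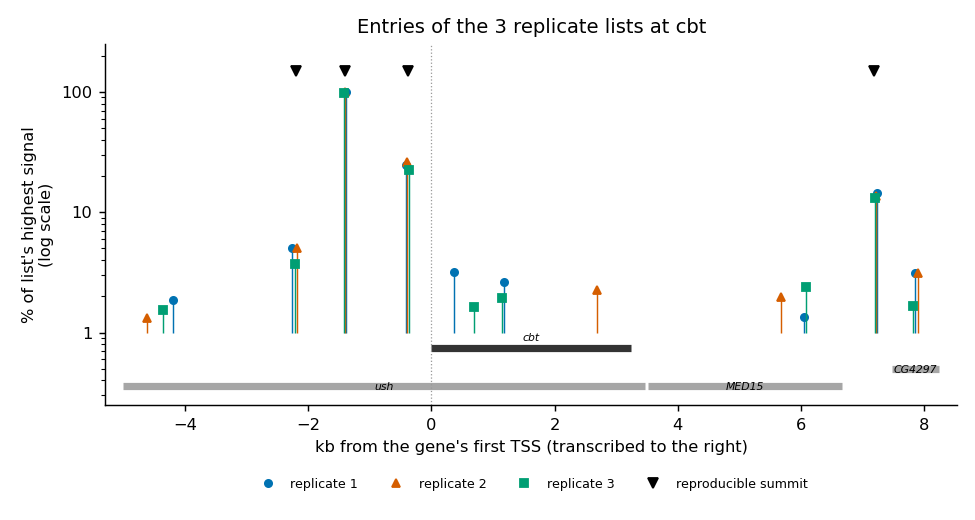
Entries of the 3 replicate lists at cbt, by distance in kb from its TSS along its direction of transcription (x axis) and signal as a percentage of the list's highest signal (y axis, log scale). Coloured points are replicates, black triangles mark the 4 reproducible summits and bars mark genes. The replicates coincide at each reproducible summit, with the entries 1400 bp upstream at 97.0% to 100% of the list's highest signal.

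The gene luna (FBgn0040765, chr2R:10977956-11116378, minus strand) encodes a KLF protein related to mammalian KLF6 and KLF7, known from work on embryonic cell division. It is 138423 bp long with 2 annotated TSSs, and its 5 reproducible summits all lay in its introns. The strongest, at 11063039 (chr2R:11062839-11063238), was 43777 bp downstream of the nearer luna TSS. Its signal was 73.5, 65.3 and 82.3 in replicates 1, 2 and 3, with ranks 1275, 1581 and 899 and a pooled rank of 1233. Replicate 3 ranked it highest and replicate 2 lowest, and in all of them it was among the 3511 strongest entries.

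The other 4 luna summits lay within 8602 bp of one another, nearer to the upstream end of the gene. Those at 11102964, 11095330 and 11094362 were 3852, 11486 and 12454 bp downstream of a luna TSS. The first had signals of 46.4, 49.3 and 40.5 and ranks 2773, 2398 and 2750. The second had signals of 45.3, 45.9 and 44.2 and ranks 2888, 2651 and 2441. These peaks were alike in strength, and the replicates differed little. The peak at 11094362 (signals 53.9, 58.0 and 42.3, ranks 2143, 1893 and 2586) overlapped the one at 11094563, whose summit was 201 bp away. Replicates 1 and 3 held 1 entry for the pair, and replicate 2 held separate ones, the weaker with a signal of 37.8 and rank 3586. The weaker peak, at pooled rank 3331 and signal 111, is the family's member closest to the end of the reproducible list, and the 5 luna summits are 4 places if the pair is counted as 1.

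Length has to be read beside the luna count. Its window of 148.4 kb gave 0.0337 summits per kb, 1.28-fold the density of the arms. Of 116 genes with windows of 100 kb or more, 59.5% had at least 1 reproducible summit and 16.4% had 5 or more. The relaxed lists held 27 pooled entries there, and 39, 36 and 24 in the replicates. The strongest pooled entries outside the reproducible list, at 11044491 and 11032889, had signals of 72.5 and 68.5 and ranks 6113 and 6771. None of the pooled entries lay within 500 bp of a luna TSS.

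**Figure D2:**
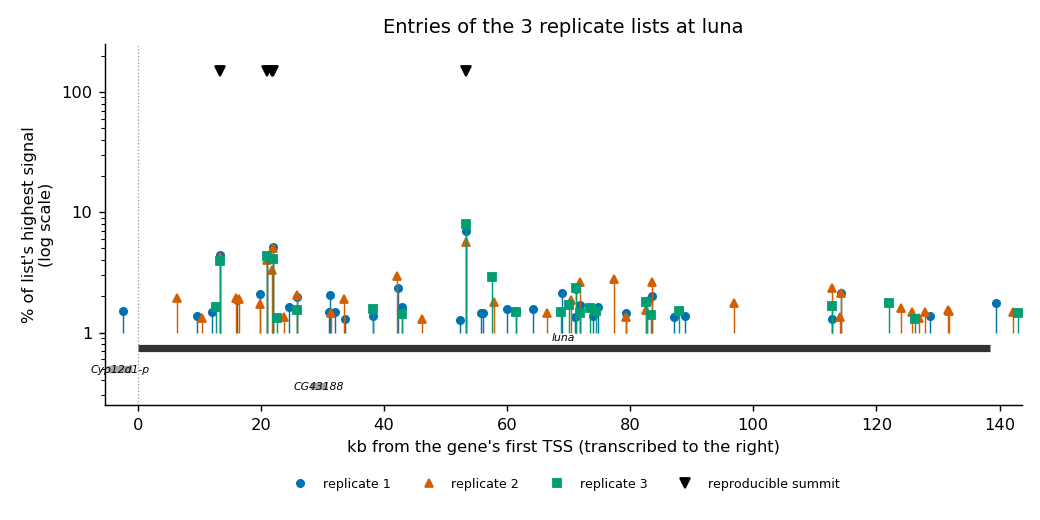
Entries of the 3 replicate lists across luna, by distance in kb from its first TSS along its direction of transcription (x axis) and signal as a percentage of the list's highest signal (y axis, log scale). Symbols are as for cbt; 5 reproducible summits appear as 4 triangle positions because a pair lies 201 bp apart, and the other entries lie near the bottom of the axis.

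The gene dar1 (dendritic arbor reduction 1, FBgn0263239, chr3L:3626352-3653442, plus strand) encodes a KLF protein required for the growth of neuronal dendrites. Its single reproducible summit, at 3638816 (chr3L:3638616-3639015), lay in an intron of dar1 itself, 12464 bp downstream of the TSS. Its signal was 64.7, 49.6 and 35.5 in replicates 1, 2 and 3, and its ranks were 1586, 2364 and 3314. Replicate 1 was highest and replicate 3 lowest, the last being close to rank 3511. The window of 37.1 kb gave 0.0270 summits per kb, 1.03-fold the arms, and 57.4% of the 563 genes with windows of 30 to 50 kb had at least 1. Of 8 pooled entries at dar1, the strongest outside the reproducible list (3649733, signal 43.9, rank 17623) had a matching entry in replicate 1 only. Beyond the flank, 9825 and 8943 bp upstream of dar1, were stronger peaks of ranks 346 and 588. Both were nearer to a TSS of CG10357, at 1145 and 2027 bp.

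The gene Spps (Sp1-like factor for pairing sensitive-silencing, FBgn0039169, chr3R:24223445-24226934, minus strand) encodes an Sp protein that binds Polycomb response elements. Both of its reproducible summits were at the start sites of neighbouring genes. One, at 24222109 (chr3R:24221909-24222308), lay 4825 bp from the Spps TSS, beyond its 3' end, and 133 bp upstream of a TSS of cav, which encodes a telomere capping protein, and 144 bp upstream of twin, a deadenylase gene. Its signal was 56.8, 36.7 and 52.6 in replicates 1, 2 and 3, with ranks 1955, 3765 and 1895. The other, at 24230493 (chr3R:24230293-24230692), was 3559 bp upstream of Spps and 69 bp upstream of mask, which encodes an ankyrin-repeat cofactor of the Hippo pathway. Its signal was 41.0, 50.8 and 31.7, with ranks 3353, 2286 and 3910. The replicates disagreed on which was stronger, replicate 2 putting the mask peak first and replicates 1 and 3 the cav peak.

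Within Spps itself there was a relaxed entry in the coding sequence at 24224054, with signal 52.0 and rank 11921. The 2 reproducible summits in 13.5 kb gave 0.148 per kb, 5.65-fold the density of the arms, and 11.7% of genes with windows up to 15 kb had at least 2. With a replicate left out, peaks also had to be among the strongest entries of both remaining replicates. Spps then had 0 summits without replicate 1 and 1 without replicate 2 or replicate 3. Each peak was among the strongest entries of 2 replicates only, the cav peak ranking 3765 in replicate 2 and the mask peak 3910 in replicate 3. The losses therefore come from this added filter, which cannot show whether the count depends on any replicate. The density at Spps is of a window which also holds the starts of cav, twin, mask and Spase22-23, and none of it came from a summit in Spps.

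The gene btd (buttonhead, FBgn0000233, chrX:9694186-9697558, plus strand) encodes an Sp protein and head gap factor. It had 2 pooled entries and no reproducible one. The stronger, at 9695207, lay in the coding sequence, 1021 bp downstream of the TSS, with signals of 23.9, 29.95 and 19.6 in replicates 1, 2 and 3 and ranks 9137, 5571 and 10081. Its pooled signal was 75.7 and its pooled rank 5727, and in no replicate was it among the 3511 strongest entries. The nearest reproducible summit was 6442 bp from the gene (rank 2281, signal 146) and 445 bp from the TSS of lncRNA:CR42657.

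The gene Sp1 (FBgn0020378, chrX:9729648-9756369, plus strand) is a neighbour of btd with a related role in leg and brain growth. It had 4 pooled entries, none reproducible. The strongest of these was in the coding sequence at 9753642, with signal 45.8 and rank 15822, and matched entries in replicates 1 and 3. An intronic entry at 9733542 (signal 45.2, rank 16377) was matched in replicate 1 only, and one at 9725121 (signal 45.1, rank 16511), upstream of the gene, in replicates 1 and 2. None of the 4 pooled entries of Sp1 was matched in all 3 replicates, and the nearest reproducible summit was 22291 bp away (rank 803, signal 277).

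The gene Klf15 (FBgn0025679, chrX:4770557-4771588, minus strand), known for its role in nephrocytes, had no entry in its 11.0 kb window in the pooled or any replicate list. Of all genes, 2.95% (536) had none, and of genes with windows up to 15 kb, 3.63% (528). The nearest pooled entry was 8146 bp away, at rank 8511 with signal 60.7, and the nearest reproducible summit 82540 bp away, at rank 2206. A missing entry says only that no list reported a peak there.

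**Figure D3:**
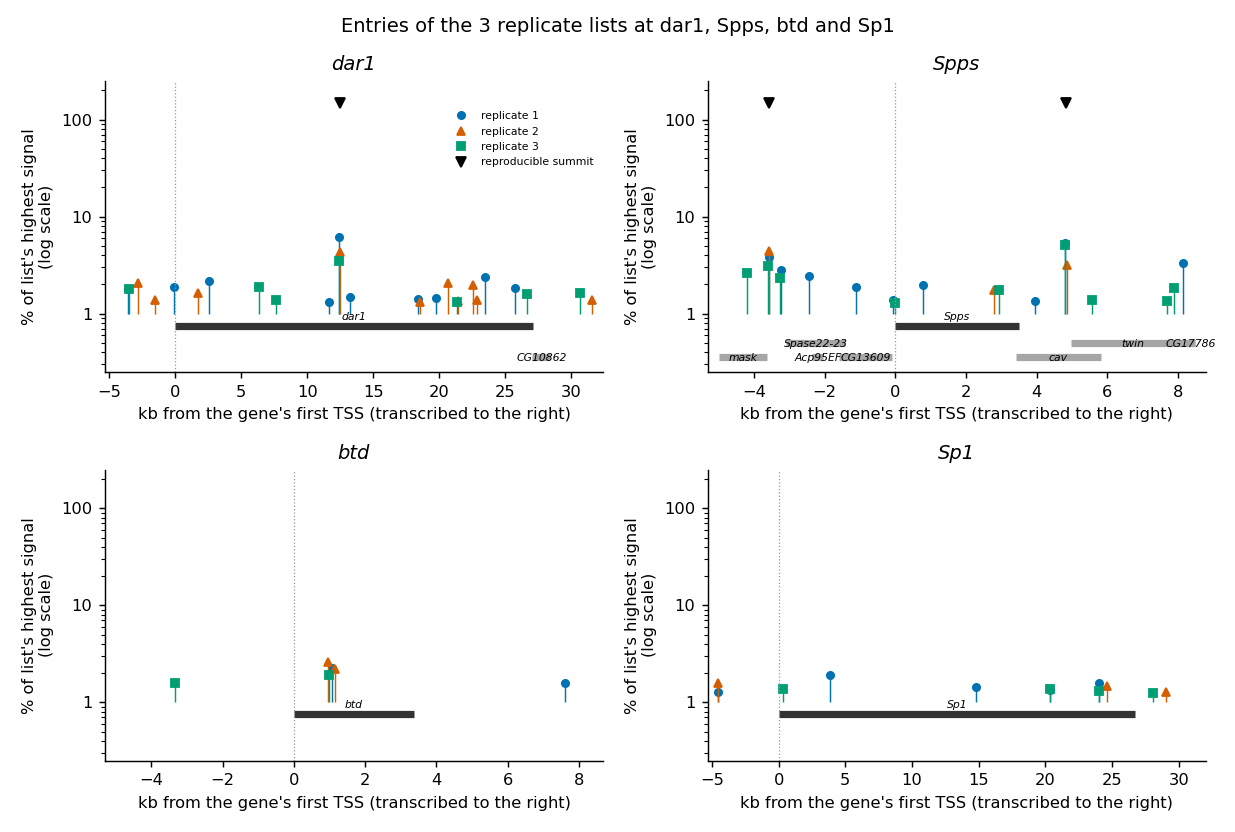
Entries of the 3 replicate lists at dar1, Spps, btd and Sp1, by distance in kb from the gene's first TSS (x axis) and signal as a percentage of the list's highest signal (y axis, log scale). Black triangles mark reproducible summits, of which dar1 has 1, Spps has 2 and btd and Sp1 have none; no entry at these genes passed 10% of the highest signal.

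Ordered by their strongest entry, the genes read cbt, luna, dar1, Spps, btd, Sp1 in the pooled list and replicate 1, and cbt, luna, Spps, dar1, btd, Sp1 in replicates 2 and 3. The strongest entry at luna ranked 899 to 1581, at dar1 1586 to 3314 and at Spps 1895 to 2286. The Spps range joins 2 peaks, the mask peak in replicate 2 and the cav peak in replicates 1 and 3. The cav peak alone ranked 1955, 3765 and 1895 in replicates 1, 2 and 3. The ranges of dar1 and Spps overlapped, so their order did not hold beyond the spread. Those of luna and dar1 were separated by 5 ranks, but these are ranks from different lists. Within replicates 1, 2 and 3, luna ranked 1275, 1581 and 899, and dar1 1586, 2364 and 3314. Below them, btd ranked 5571 to 10081 and Sp1 12783 to 21488, without overlap with each other or the rest. Of the 12 reproducible peaks, 9 were among the 3511 strongest entries of all 3 replicates, the exceptions being the luna peak of rank 3331 and both Spps peaks. Their signals had a median of 152, against 175 for all reproducible peaks, and only the 3 strongest cbt peaks and the strongest luna peak were above that 175.

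**Figure D4:**
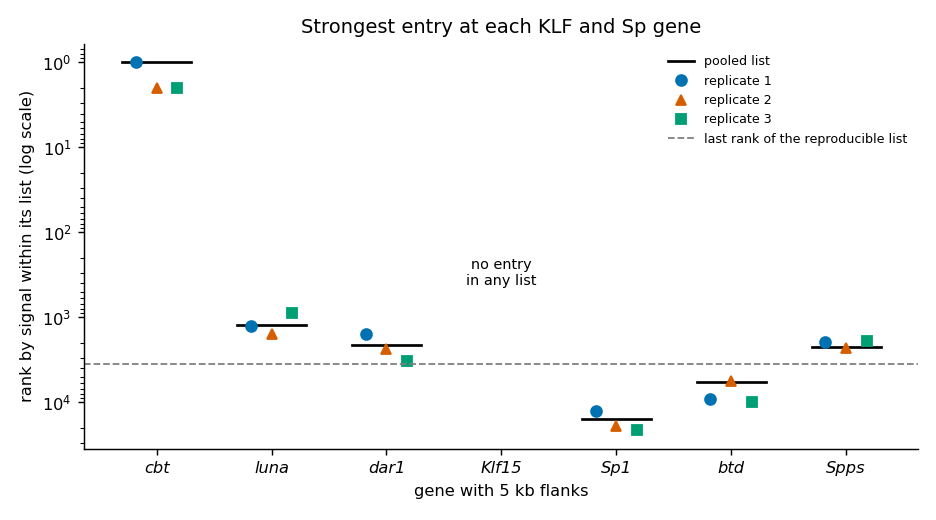
Rank by signal of the strongest entry in the gene or its 5 kb flanks (y axis, log scale, strongest at the top) for each of the 7 genes (x axis); black bars are the pooled list, coloured points the 3 replicates, and the dashed line is rank 3511. The cbt points are at ranks 1 to 2, luna, dar1 and Spps lie above the dashed line, btd and Sp1 below it, and Klf15 has no entry.

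The place of the summits was in part used in the choice, since cbt was taken for a peak beside it, and is given as a description. Of the 12 summits, 4 lay within 500 bp of any TSS, those of cbt, CG4297, cav and mask, and 8 in introns farther from a TSS. Among all reproducible summits, 54.3% were within 500 bp of a TSS, 31.3% were intronic, 12.02% were intergenic and 2.39% were in exons. The 5 luna summits and the 1 at dar1 make up most of the intronic count, and come from 2 genes.

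Replicates placed their summits near the reproducible one. The distance had a median of 20.0 bp over 36 values at the family's peaks and 13 bp over 10439 values at all reproducible peaks. At the strongest cbt summit the replicates were -18, 4 and 16 bp away, and at the one 380 bp upstream of the TSS they were 29, 24 and -9 bp away. At the luna peak of rank 3331 they were -142, -2 and -104 bp away, since replicates 1 and 3 had a single entry for the overlapping pair. The replicate summits spanned 34, 38, 45 and 86 bp at the cbt peaks of ranks 1, 82, 316 and 2157. They spanned 29, 97, 23 and 20 bp at the luna peaks of ranks 1233, 2165, 2345 and 2485. Neither gene had the closer replicates throughout.

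**Figure D5:**
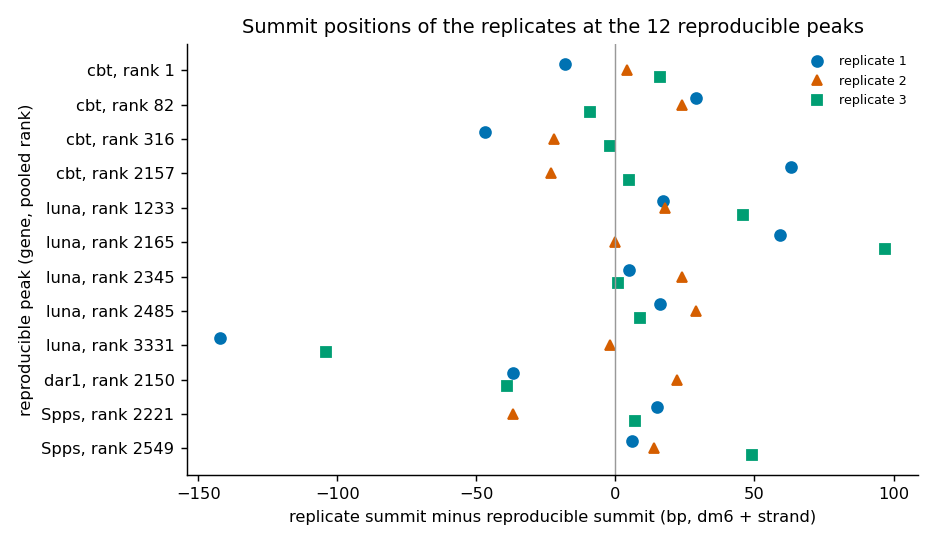
Position of each replicate's summit relative to the reproducible summit in bp (x axis) for the 12 reproducible peaks (y axis, named by gene and pooled rank), 1 point per replicate. Most points lie within 50 bp of 0; the luna peak of rank 3331 has points at -142 and -104 bp.

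GC content in the 101 bp around the summit ranged from 21.8% at dar1 to 45.5% at the weakest cbt peak, with a median of 33.7%. All reproducible summits had a median of 35.6% and pooled entries outside the reproducible list 47.5%. The strongest cbt summit had 27.7%, and 12.4% of reproducible summits had less. The other cbt summits had 30.7%, 39.6% and 45.5%, on both sides of the median of all reproducible summits. The 6 relaxed entries at Sp1 and btd ranged from 28.7% at an intronic Sp1 entry to 66.3% at the btd coding entry printed above, with a median of 52.0%.

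Both strands of the 50 bp on each side of a summit were searched for 8 motifs, and a match describes letters only. The GC box GGGCGG was found at 0 of 12 summits, against 1.85% of all reproducible summits. The CACCC box GGGTG was found at 1 of 12, the Spps peak by mask, against 8.32%. CGATA, which is part of TATCGATA, was found at 2 of 12, at dar1 and the mask-side Spps peak, against 18.7%, and TATCGATA itself at none, against 2.42%. GAGAG was found at 2 of 12, against 10.1%, namely the cbt summit 380 bp upstream and the luna summit at 11095330. GCCAT was found at 3 of 12, against 16.1%, at dar1 and at the cbt summits of ranks 82 and 316. CACGTG and GGTCACACT were at none, against 1.08% and 0.911%. Any of these motifs was at 5 of 12 summits, against 44.9% of all, and the strongest cbt summit held none of them within this window.

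Lists of related genes were read by the same count, a reproducible summit within 500 bp of a TSS, against the 14.1% of all genes. In the other KLF, EGR and Sp-like zinc-finger genes it was 0 of 5. Among 14 genes of the Dpp and activin pathway, whose TGF-beta-type signals cbt relatives respond to in mammals, it was also 0. The circadian clock list had 1 of 8, vri, a clock repressor, with a summit 217 bp upstream, rank 1372 and replicate ranks 1826, 1480 and 1270. The JNK pathway list, a pathway of dorsal closure, had 1 of 8, kay, the fly Fos, 453 bp upstream, with rank 2799 and replicate ranks 5076, 2303 and 2747. Of 9 factors of Polycomb response elements, the setting of Spps, 3 had such a summit: Trl, the GAGA factor, with rank 321 and replicate ranks 312, 215 and 689, psq with rank 1006 and replicate ranks 1446, 1433 and 604, and Sfmbt with rank 968, replicate ranks 890 and 1167, and no matching entry in replicate 3. The head gap genes beside btd had 0 of 6. Except for the Polycomb response element list, at 3 of 9, these were counts of 0 or 1. CG8944 itself had 4 reproducible summits in its window, where 0.652% of genes with windows up to 15 kb, as here, had at least 4. The strongest of these summits, of rank 868, was 5835 bp downstream of the CG8944 TSS, beyond the 3' end of the gene. The line expresses a tagged CG8944 and no control library was analysed, so nothing is read from this count.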

How the data were processed

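The values are peak lists in narrowPeak form on dm6. Per the deposited file listing, the authors called relaxed peaks in each of 3 replicates and in the pooled replicates against a control alignment, and derived the reproducible list from these by IDR. No aligner, caller, version or threshold is given in the sources used here. The deposited signal value per peak has no stated scale, and no control library was analysed here. Between replicates, 0.767% to 1.32% of summit positions and 0 signal values were identical, so they were counted as separate samples.

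Summits were placed on Ensembl annotation BDGP6.54, release 115, without transposable elements (Python 3.11.15, pandas 2.3.3, numpy 2.4.6), and sequences were read from RefSeq Release 6, in which 99.9% of 16213 annotated start codons read ATG. Ranks count from the highest signal in a list. For replicate ranks, signals and distances, a replicate entry was matched when its summit lay in the reproducible peak. Gene search was tested on simulated data. Members and lists were chosen with earlier results of these data known. All 7 members are named, with up to 5 reproducible summits each, their host or neighbouring genes, the highest-signal occupied genes of each other list (up to 2; a further Polycomb response element gene and further genes in the closing section were chosen after their values were seen), and the 3 genes next to cbt in rank. Alternatives were other flanks, TSS and motif windows, signal thresholds, matching rules and leaving out each replicate. The dm3 lists were not used here. No test was made, since there is 1 group.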

Additional observations from a re-analysis of the deposited data

How the results depend on the processing

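Within the gene alone, 2 members (luna and dar1) and 6 summits were left, and within 200 bp of a TSS, 0 members. In the stronger-signal part of the reproducible list there were 2 members with 4 summits, and in the pooled list 55 summits. With motif windows of 100 bp, GGGTG was at 2, CACGTG at 1, CGATA at 4, GAGAG at 5 and GCCAT at 5 of the 12 summits, and with 25 bp GAGAG was at 1; wider windows hold more letters. Flanks of 2 and 10 kb gave 4 and 5 members with 9 and 18 summits, btd being the one added at 10 kb. Leaving out a replicate gave 3 to 4 members and 10 to 11 summits, always with 1 member at its own TSS. Here the kept peaks also had to be among the strongest entries of both remaining replicates. By this filter Spps lost both summits without replicate 1 and 1 of 2 without replicate 2 or 3. Each Spps peak was among the strongest entries of 2 replicates only, so these losses do not measure dependence on the replicate left out. The counts with a replicate left out did not follow the match by summit used for replicate ranks. They kept all 5 luna summits, although by that match the luna peak of pooled rank 3331 ranked only 3586 in replicate 2. For the peak strongest in the pooled list at each gene, the median replicate rank was also taken with a replicate left out. It ranged from 1.5 to 2 at cbt, 1087 to 1428 at luna and 1975 to 2839 at dar1. At Spps, where this is the cav peak, it ranged from 1925 to 2860. The median summit distance ranged from 17.5 to 22 bp. These last alternatives, for ranks and distances, were chosen after seeing the data. Other matching rules changed no rank. No paired analysis was possible because the samples form 1 group. Depth is unknown, so a missing entry cannot be read as absence.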

Other observations

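Counting summits anywhere in the gene or its 5 kb flanks, a count made for these lists after their values were seen, gave a different picture from the TSS count. In the Dpp and activin pathway 12 of 14 genes had a reproducible summit, where 39.5% of all genes did, although 0 of 14 had one within 500 bp of a TSS. The windows of these genes differ in length; of the 5 with windows up to 15 kb, 4 had a summit, where 35.8% of such genes did. The strongest were at gbb, a BMP ligand (rank 25, signal 1427, 1160 bp upstream), Med, the co-Smad (rank 50, signal 1026, 5121 bp downstream), and Mad, the Dpp-responsive Smad (rank 107, signal 681, 653 bp upstream). The strongest summit was also upstream at brk (876 bp), babo (1140 bp), Smox (1474 bp), tkv (1620 bp) and shn (2450 bp), at ranks 689, 561, 791, 2481 and 771. It was downstream of the TSS at wit (1136 bp), dpp (5270 bp), sax (5778 bp) and Dad (10242 bp), at ranks 471, 744, 924 and 466. At sax, and also at Med, it lay past the 3' end of the gene, in the flank. The strongest summits of the pathway genes thus lay on both sides of the TSS. Whether these summits serve the pathway gene or a neighbour was not tested.

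The same 39.5% of all genes is the background for the other lists, and it rises with length, to 57.4% for windows of 30 to 50 kb and 59.5% for those of 100 kb or more. Among the factors of Polycomb response elements 8 of 9 had a summit in the window, all but pho, with rank 20 at Adf1, 57 at phol and 67 at Trl, while only 1 of the 9 has a window up to 15 kb. The clock list had 4 of 8, the JNK list 5 of 8, the other KLF, EGR and Sp-like genes 2 of 5 (sr, rank 686, and CG3065, rank 1576) and the head gap genes 2 of 6 (oc, rank 1519, and slp1, rank 2880). No test was made of any of these counts.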
